A study of Mus musculus with 6 samples.

Results

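The array measured 79 genes of the glutathione, thioredoxin and antioxidant systems in the livers of mice fed a choline- and folate-deficient (CFD) diet and of control mice. They are the genes whose spots on the array carried a name of the glutathione S-transferase, glutathione peroxidase, peroxiredoxin, thioredoxin, glutaredoxin or superoxide dismutase families, or were Gclc, Gclm, Gss, Gsr, Hmox1, Srxn1, Ggt1, Nfe2l2, Keap1, Cbr1 or Cbr3. They were covered by 131 of the 41174 probes and are 79 of the 27670 named genes and transcripts on the array. The rule takes every name that starts in a given way, so it also takes 17 thioredoxin-domain proteins that are not all antioxidant enzymes, among them the splicing factors Txnl4a and Txnl4b.

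RNA from whole livers of male C57BL/6J mice, an inbred laboratory strain, was hybridised to single-colour Agilent arrays. The 3 CFD diet livers came from mice fed an l-amino acid-defined, iron-supplemented diet without choline or folic acid and with 0.17% methionine. The 3 control livers came from mice fed the same iron-supplemented base diet to which choline bitartrate (0.3%), folic acid (2 mg/kg) and methionine (0.4%) had been added. Diets started at 8 weeks of age and lasted 12 weeks in both groups, so the mice were 20 weeks old at the end. Both groups share the base diet and its iron, so the comparison is between 2 levels of methionine, choline and folic acid together, and their separate effects cannot be told apart. Whether the numbered replicates are different mice is not stated in the labels, so p-values here reflect sample-to-sample spread that may be partly technical.

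Glutathione is a small thiol that donates electrons to glutathione peroxidases, which reduce peroxides, and is joined to reactive compounds by glutathione S-transferases. Thioredoxin does a parallel job for the peroxiredoxins and is itself recharged by thioredoxin reductases using NADPH. In hepatocytes the cysteine for glutathione comes partly from methionine by transsulfuration, and many of these genes can be switched on by the transcription factor NRF2 when its repressor KEAP1 lets it go.

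Values for single arrays are given as scaled signals, the background-subtracted intensity scaled so that the 75th percentile of each array is 1000. Probes differ in how brightly they bind, so signals of different probes were not used to compare levels between genes. They were set side by side only to choose the brightest tested probe of a gene and to sum cell type markers. Differences are log2 fold changes of CFD diet over control with their standard error (SE) from limma, a linear model fitted to all genes, and a gene is called higher or lower where its p-value adjusted over all 15911 tested genes was below 0.05. Values printed with ± are on this log2 scale, and negative values are lower in CFD diet livers. Between 23586 and 29045 probes per CFD diet array and between 21690 and 26271 per control array were well above background, and no spot was saturated. Of the 79 genes, 75 had a probe that stood well above background throughout 1 group or both and were tested, and 72 were well above background on all 6 arrays. Gpx5, Nme8, Nxnl1 and Txndc8, genes best known from the male reproductive tract or, for Nxnl1, the retina, were not tested.

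The CFD diet livers had a mixed pattern, in which 15 of the 75 tested genes were higher, 31 were lower and 29 were not called. Among all 15911 tested genes, 23.7% were called higher, 27.4% lower and 51.1% either way, so the share of members called higher (20.0%) was close to the background and the share called lower (41.3%) was above it. The median difference of the members was -0.28, and that of all tested genes was -0.11. Of the 75 tested members, 23 (30.7%) were called and differed by at least 2-fold, 10 of them higher and 13 lower. Among all tested genes this share was 24.6%, in both directions together. Of the called members 32.6% were higher, against 46.4% of all called genes. Scaling the arrays in another way moved this split. With quantile normalization 20 members were higher and 22 lower, so 47.6% of the called members were higher, against 51.7% of all called genes. The share of members called lower was then 29.3%, near the 25.5% of all tested genes. With normexp background correction 21 members were higher and 26 lower, so 44.7% of the called members were higher, against 50.5% of all called genes, and 34.7% of the members were lower, against 26.5% of all tested genes. Scaling to the array median, which shifts the median of all genes by -0.20, gave 12 higher and 34 lower. There 26.1% of the called members were higher, against 33.5% of all called genes. A stricter filter required a clear signal on each of the 6 arrays and left 72 members. Of these, 13 were higher (18.1%) and 31 lower (43.1%), against 19.8% and 30.5% of the 14248 genes it kept. Ggt1 and Gpx2, which count as higher in the reported fit, did not pass it because of their control arrays.

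The largest rises with a signal well above background on at least 2 arrays of each group were those of Mgst2, Gpx3, Gpx2 and Cbr3, while for Ggt1 a bound alone can be given. The falls were spread over cytosolic transferases, the mitochondrial reductase Txnrd2, the Prdx6 family, Gpx1 and the superoxide dismutases Sod1 and Sod2. Of the 31 lower calls, 13 were lost in at least 1 fit that leaves out 1 array. Among these 13 were Gstm1, Gstp1, Gsta3, Gpx1 and Sod1. The plot of all tested members by family shows rises up to 4.89 and falls down to -1.85.

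**Figure D1:**
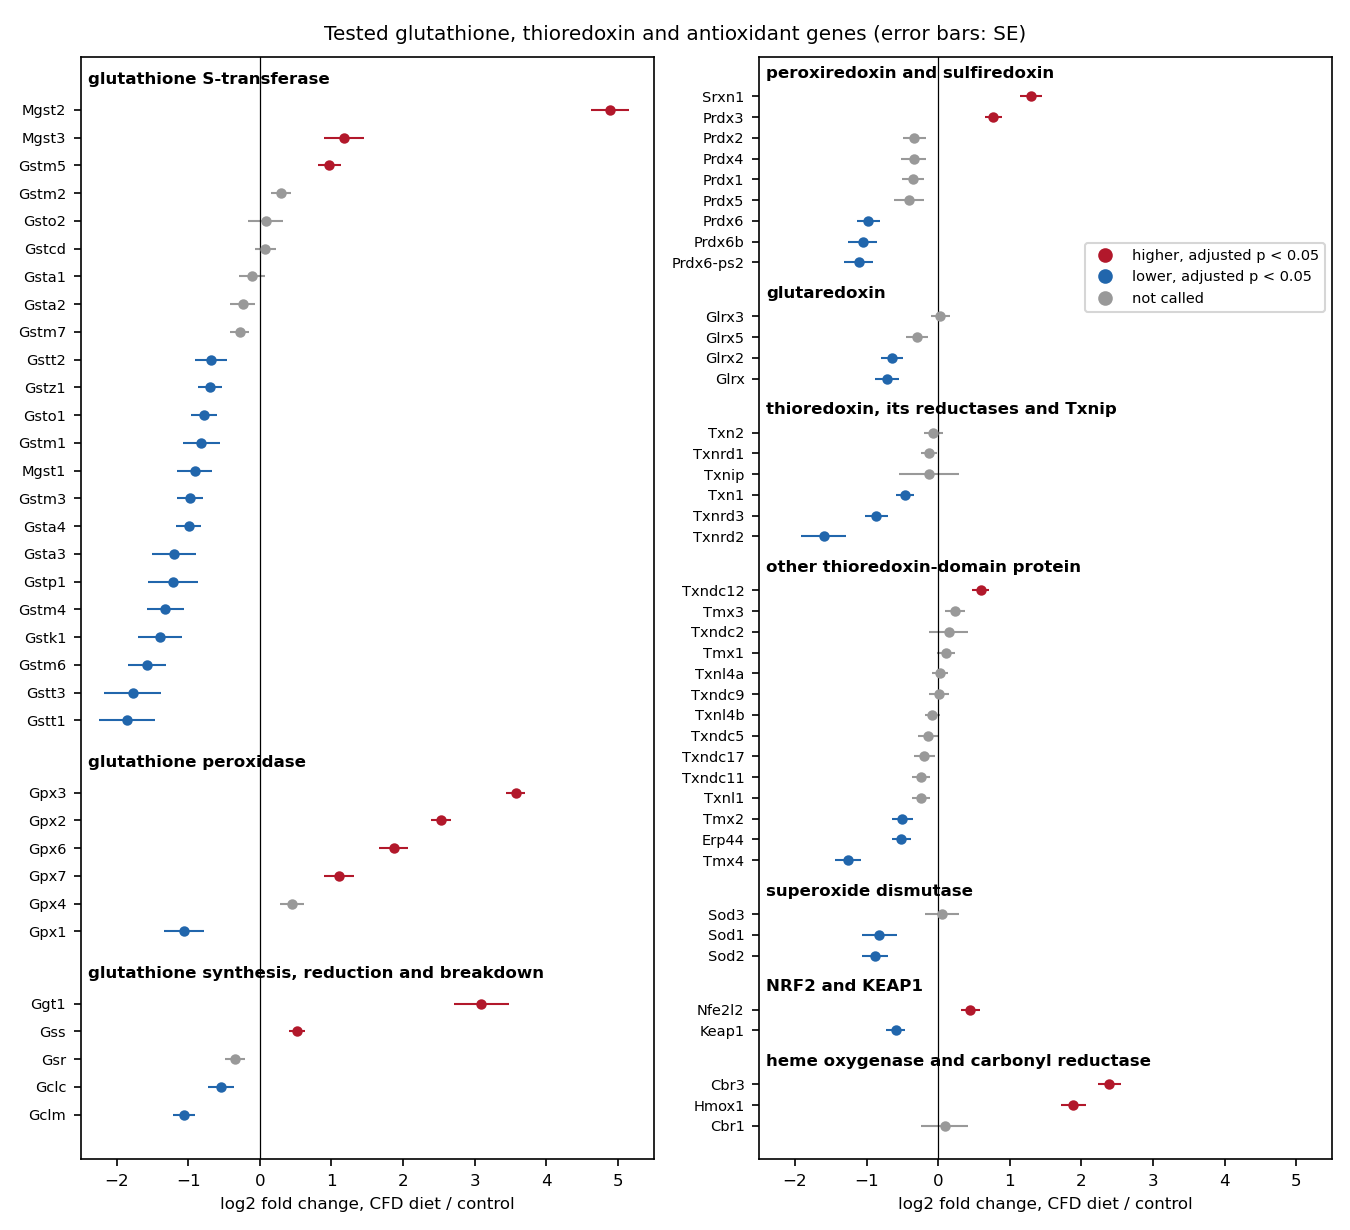
Log2 fold change of CFD diet over control for each of the 75 tested genes, grouped by family, with points for the estimates and bars for the SE (3 arrays a group). The 15 genes called higher reach 4.89 (Mgst2) and the 31 called lower reach -1.85 (Gstt1). The point of Ggt1 is a fitted value against control arrays at background, not a measured fold.

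Nfe2l2, which encodes NRF2, had scaled signals of 14580.2, 13732 and 15786 in CFD diet livers, against 11948, 9622 and 10836 in control livers. All 3 CFD diet arrays lay above all 3 control arrays, by 0.45 ± 0.13 (adjusted p = 0.0284), but only 1 of its 4 tested probes was called, and they ranged from -0.13 to 0.59. Its call was also lost without control replicate 2 (adjusted p = 0.0902), control replicate 3 (0.0888), CFD diet replicate 1 (0.0634) or CFD diet replicate 3 (0.0949), and with scaling to the array median. Keap1, the adaptor that marks NRF2 for degradation, had 11359, 13990.5 and 12690.5 in CFD diet livers, against 17657, 19522 and 20074 in control livers. The groups did not overlap, and Keap1 was lower, at -0.59 ± 0.13 (adjusted p = 0.00968), a call that was lost with quantile normalization (adjusted p = 0.0563). NRF2 is regulated mainly at the protein level, which these arrays do not measure.

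NRF2 binds the antioxidant response element, whose core is TGACNNNGC. That motif was searched on both strands of the promoter windows in RefSeq (GRCm38.p6), which run from 250 bases before a gene's start to 50 after it. Windows were found for 67 of the 79 genes, and 16 of the 67 (23.9%) held the motif, against 3781 of all 27025 genes with a window (14.0%). A gene with several starts has several windows, as 19 of the 67 had, and was counted if any of them held the motif. The same rule was used for all genes, but the shares were not matched for the number of windows. It stood in 4 of 14 genes called higher (28.6%), 5 of 25 called lower (20.0%) and 7 of 24 not called (29.2%). The motif was thus found in members of every class of call. The matches are descriptions of these letters and not measured binding, and distal elements lie outside the window.

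The stretches below show the motif in capitals with its surroundings in genes of each class, printed 5′ to 3′ in the direction of the gene. The motif may read in reverse, as GCNNNGTCA. The following genes were called higher.
Ggt1 (chr10:75571441-75571521, plus strand): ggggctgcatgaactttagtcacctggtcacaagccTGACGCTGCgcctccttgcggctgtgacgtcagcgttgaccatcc
Gstm5 (chr3:107895776-107895853, plus strand): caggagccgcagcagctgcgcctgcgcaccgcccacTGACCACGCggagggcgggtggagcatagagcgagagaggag
Nfe2l2 (chr2:75704859-75704913, minus strand): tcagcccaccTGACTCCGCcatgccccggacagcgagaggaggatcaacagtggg
These genes were called lower.
Gclm (chr3:122245387-122245467, plus strand): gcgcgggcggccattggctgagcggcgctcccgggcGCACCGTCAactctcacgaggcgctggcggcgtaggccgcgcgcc
Gsta3 (chr1:21240428-21240508, plus strand): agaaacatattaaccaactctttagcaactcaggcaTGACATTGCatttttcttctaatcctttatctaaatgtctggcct
Mgst1 (chr6:138140435-138140515, plus strand): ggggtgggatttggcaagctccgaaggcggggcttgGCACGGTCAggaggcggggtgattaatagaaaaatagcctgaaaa
Prdx1 and Txnrd1, which are textbook NRF2 targets, were not called. In Prdx1 the match overlaps TGANTCA, the core of the AP-1 site, and in none of the other 15 genes did it.
Prdx1 (chr4:116685430-116685510, plus strand): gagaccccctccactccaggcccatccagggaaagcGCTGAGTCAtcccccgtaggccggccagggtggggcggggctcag
Txnrd1 (chr10:82859078-82859158, plus strand): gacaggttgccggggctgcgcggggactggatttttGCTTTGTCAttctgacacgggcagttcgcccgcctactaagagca

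The glutathione S-transferases join glutathione to electrophiles such as drug metabolites and lipid aldehydes. All 23 were tested, and 14 were lower, 3 were higher and 6 were not called, with a median of -0.78. The 14 are 60.9%, against 27.4% of all tested genes called lower. Without control replicate 2 the count lower was 9, and without control replicate 3 or CFD diet replicate 3 it was 8. It was 7 without a filter on dim probes, 11 with quantile normalization (median -0.32) and 12 with normexp (median -0.28). It was 15 with scaling to the array median, without CFD diet replicate 2 and with the mean of all probes. The share of all tested genes called lower was 17.0% without control replicate 3 and 8.9% without the filter. All 3 theta-class genes were lower. So were 4 of 7 mu-class genes, 2 of 4 alpha-class genes and 4 of the 5 other cytosolic and kappa genes.

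Gstt1, which conjugates small halogenated compounds, had scaled signals of 1969, 5680.2 and 2616 in CFD diet livers, against 12309, 8662 and 12895 in control livers. Every CFD diet array was below every control array, and Gstt1 was lower, at -1.85 ± 0.39 (adjusted p = 0.00842), with within-slide differences of -2.64, -0.61 and -2.30. Its neighbour Gstt3 had 7645, 21171 and 10291 in CFD diet livers, against 35899, 32852 and 56720.1 in control livers, a difference of -1.78 ± 0.40 (adjusted p = 0.0105). In both genes CFD diet replicate 2 lay between the other CFD diet arrays and the controls. The third theta gene, Gstt2, was lower by a smaller amount, at -0.68 ± 0.22 (adjusted p = 0.0393), and its call was lost with quantile normalization, with normexp and in 5 of the 6 fits that leave out 1 array (adjusted p up to 0.124).

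In the mu class, Gstm6 had scaled signals of 4038, 8349 and 4657 in CFD diet livers, against 15402, 15626 and 17260.3 in control livers, without overlap, and differed by -1.58 ± 0.27 (adjusted p = 0.00401). Gstm4 had 3761, 7119.8 and 3989 in CFD diet livers, against 11594, 10688 and 13327 in control livers, again without overlap, and differed by -1.32 ± 0.26 (adjusted p = 0.00641). Gstm3 differed by -0.97 ± 0.18 (adjusted p = 0.00558). Gstm1, a major mu-class enzyme of mouse liver, differed by -0.81 ± 0.26 (adjusted p = 0.038), but CFD diet replicate 2, at 603823, was above control replicate 1, at 587519. The Gstm1 call was lost without control replicate 2, control replicate 3, CFD diet replicate 1 or CFD diet replicate 3 (adjusted p from 0.107 to 0.116) and with quantile normalization or normexp. Gstm5 went the other way, with 4959.9, 6637 and 5169 in CFD diet livers, against 2749, 2608 and 3158 in control livers, and was higher by 0.97 ± 0.16 (adjusted p = 0.00333) without overlap. Gstm2 and Gstm7 were not called, with differences of 0.30 ± 0.14 and -0.28 ± 0.13. The second Gstm7 probe was lower, at -0.83 (adjusted p = 0.00982 over all probes), and Gstm7 was called lower without CFD diet replicate 2, with scaling to the array median and with the mean of all its probes. Gstm2 was called higher with quantile normalization and normexp. Mu-class transcripts are near copies of one another and can bind one another's probes, so the split between neighbours is uncertain.

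By the probe coordinates in the file headers' build, mm7, the 7 mu-class probes lie within 142.8 kb of chromosome 3, from 107716471 to 107859231, in the order Gstm5, Gstm7, Gstm6, Gstm3, Gstm2, Gstm1 and Gstm4. The gene called higher stood at one end of that row, and the 4 called lower were interleaved with the 2 not called. The 3 theta-class probes lie within 58.3 kb of chromosome 10, from 75429872 to 75488171. Ggt1, described further on, has its probe on the same chromosome at 75241341, and it was higher where the theta-class genes were lower.

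**Figure D2:**
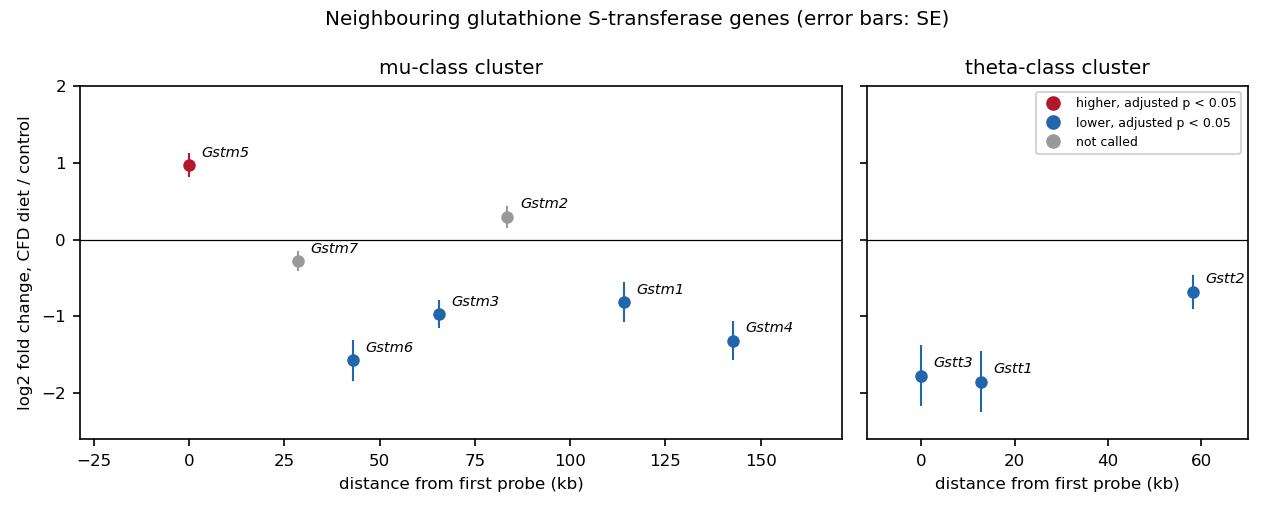
Log2 fold change of CFD diet over control (vertical axis, bars: SE, 3 arrays a group) against the distance in kb from the first probe of the mu-class and theta-class clusters. Gstm5, at 0 kb, is at 0.97, while the theta-class genes lie between -1.85 and -0.68.

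Of the other cytosolic transferases, Gstp1 had 214363, 529067 and 247943 in CFD diet livers, against 586884, 847346 and 706041 in control livers, and differed by -1.21 ± 0.35 (adjusted p = 0.0257). The 3 CFD diet arrays were below the controls, and both of its probes were lower (-1.21 and -1.85). Its call was lost without control replicate 2, control replicate 3, CFD diet replicate 1 or CFD diet replicate 3 (adjusted p from 0.0698 to 0.0873). Gstp1 has a near-identical neighbour, Gstp2, whose transcripts the probes may also bind. Gsta3, which handles lipid peroxidation products, had 153420.0, 338409 and 181621 in CFD diet livers, against 397541, 557424 and 514383 in control livers, without overlap. It differed by -1.20 ± 0.31 (adjusted p = 0.0173), a call lost without control replicate 2 (adjusted p = 0.0557), control replicate 3 (0.0567) or CFD diet replicate 3 (0.0629). Gsta4, which removes the lipid aldehyde 4-hydroxynonenal, was 1.99-fold lower (adjusted p = 0.00384). Gsta1 and Gsta2, classic inducible alpha-class genes, were not called, with differences of -0.11 ± 0.18 and -0.24 ± 0.17. Their 2 transcripts are also near copies.

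Gstk1, the kappa transferase of mitochondria and peroxisomes, had 22039.6, 52326 and 28641 in CFD diet livers, against 81658, 77512 and 94484 in control livers. The groups did not overlap, and it was lower, at -1.39 ± 0.31 (adjusted p = 0.0101). Gsto1, an omega-class thiol transferase, was lower, at -0.78 ± 0.18, and Gstz1, which works in tyrosine breakdown, at -0.69 ± 0.17 (adjusted p = 0.0117 and 0.0146). The Gstz1 call was lost without control replicate 3 (adjusted p = 0.057), without CFD diet replicate 3 (0.0524) and with quantile normalization. Gsto2 and Gstcd were not called, at 0.08 ± 0.24 and 0.08 ± 0.14.

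**Figure D3:**
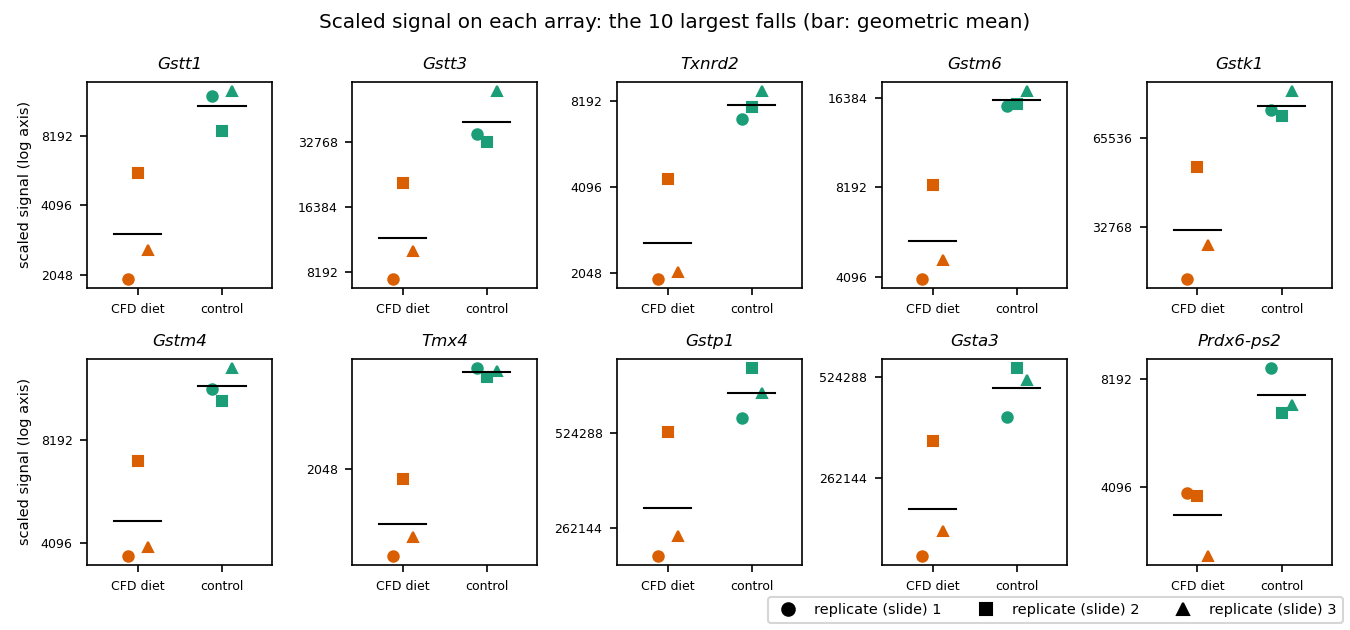
Scaled signal on each array (log axis) for the 10 members with the largest falls, CFD diet at the left and control at the right, with a symbol for each replicate and a bar at the geometric mean. In each panel the 3 CFD diet arrays lie below the 3 controls, and in 9 of the 10 CFD diet replicate 2 is the highest CFD diet array.

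The 3 microsomal transferases, membrane proteins of the MAPEG family, did not move together. Mgst2, which conjugates glutathione and can make leukotriene C4, had 1602, 1786 and 2627 in CFD diet livers, against 84.4, 68.7 and 49.8 in control livers. That is the largest difference of any member, 4.89 ± 0.26 (adjusted p = 9.35e-05), and the lowest CFD diet array was far above the highest control. With normexp, which compresses dim signals, it was 3.17. Mgst3 had 5639, 8260.4 and 7823 in CFD diet livers, against 3298, 2174 and 4396 in control livers, without overlap, and was higher by 1.18 ± 0.28 (adjusted p = 0.0134), with both tested probes higher. Without CFD diet replicate 3 its adjusted p was 0.0501. Mgst1, the main microsomal transferase of hepatocytes, was lower, at -0.91 ± 0.25 (adjusted p = 0.0203) with both probes. The Mgst1 call was lost without control replicate 2, control replicate 3, CFD diet replicate 1 or CFD diet replicate 3 (adjusted p from 0.0547 to 0.0716).

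The glutathione peroxidases use glutathione to reduce hydrogen peroxide and lipid peroxides. Of 6 tested, 4 were higher (66.7%) and 1 was lower (16.7%), against 23.7% and 27.4% of all tested genes. Gpx3, the secreted plasma enzyme, had 2844, 2903 and 2863 in CFD diet livers, against 277, 230.3 and 219.8 in control livers. The CFD diet arrays were close to each other and all above the controls, by 3.57 ± 0.13 (adjusted p = 4.83e-05), and the within-slide differences were 3.36, 3.66 and 3.70. Gpx2, the epithelial enzyme best known from the gut, had 253, 227 and 299 in CFD diet livers, against 47.2, 44.2 and 42.4 in control livers, and was higher by 2.53 ± 0.14 (adjusted p = 9.35e-05). Its probe stood clear of background on 2 control arrays of 3, and with normexp its difference was 0.97.

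Gpx6, known chiefly from olfactory epithelium, had 1673, 1379.8 and 1032 in CFD diet livers, against 408, 366 and 326 in control livers, without overlap, and was higher by 1.87 ± 0.20 (adjusted p = 0.0007). Gpx7, an endoplasmic reticulum member of the family, had 1041, 1319.8 and 1283 in CFD diet livers, against 447, 744 and 535 in control livers, also without overlap, and was 2.15-fold higher (adjusted p = 0.00596). Gpx1, the main cytosolic peroxidase of hepatocytes, had the opposite direction, with 203794, 427950.0 and 252594 in CFD diet livers, against 496447, 648644 and 611561 in control livers. It was lower, at -1.05 ± 0.28 (adjusted p = 0.0197), and the call was lost without control replicate 2 (adjusted p = 0.0613), control replicate 3 (0.0632), CFD diet replicate 1 (0.0509) or CFD diet replicate 3 (0.0685). Gpx4, which reduces lipid peroxides inside membranes, had 114831, 164207 and 130436 in CFD diet livers, against 100779, 90883 and 105437 in control livers. Its groups did not overlap, but the difference of 0.45 ± 0.16 missed the threshold (adjusted p = 0.0562). It was called higher without CFD diet replicate 1, with quantile normalization and with normexp.

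**Figure D4:**
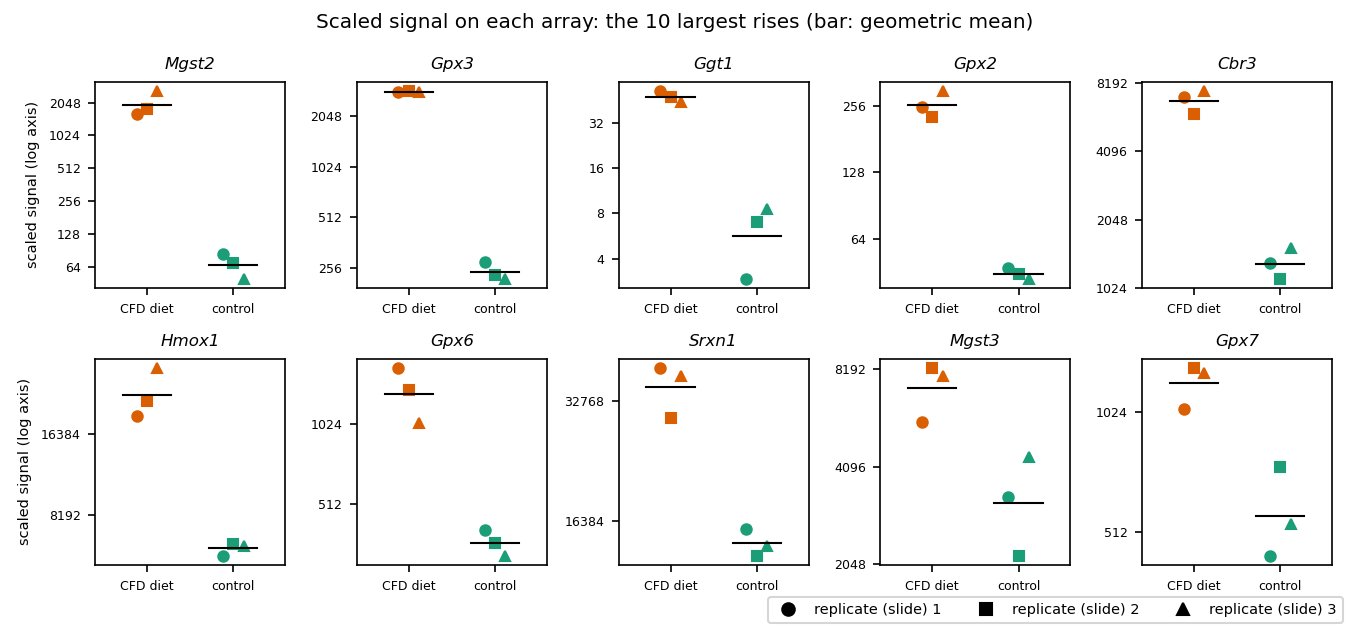
Scaled signal on each array (log axis) for the 10 members with the largest fitted rises, CFD diet at the left and control at the right, with a symbol for each replicate and a bar at the geometric mean. In each of the 10 panels the 3 CFD diet arrays lie above the 3 controls, and the control arrays of Ggt1 were not well above background.

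The enzymes that make glutathione did not change in 1 direction. Glutamate-cysteine ligase carries out the rate-limiting step. Its regulatory subunit Gclm had 1228, 1207 and 914 in CFD diet livers, against 2139.9, 2435 and 2368 in control livers, with no overlap, and was lower, at -1.06 ± 0.15 (adjusted p = 0.00224). For the catalytic subunit, Gclc, the signals were 36696, 26638 and 23179.5 in CFD diet livers, against 43250.1, 41364 and 38957 in control livers. The difference of -0.54 ± 0.19 was just past the threshold (adjusted p = 0.0477), and it was not called without control replicate 1, control replicate 2, control replicate 3, CFD diet replicate 2 or CFD diet replicate 3 (adjusted p from 0.098 to 0.14), nor with quantile normalization or normexp. Glutathione synthetase, Gss, adds the glycine, and it had 24784, 25348 and 25646 in CFD diet livers, against 18326, 16376 and 18025 in control livers. Gss was higher by 0.52 ± 0.11 (adjusted p = 0.00834) without overlap, but not with scaling to the array median (adjusted p = 0.117).

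Gsr, the reductase that returns oxidised glutathione to its reduced form, had 4761, 4943 and 4415 in CFD diet livers, against 6813, 5198 and 5998 in control livers. The difference of -0.34 ± 0.14 missed the threshold (adjusted p = 0.0793), although the groups did not overlap. Of its 3 probes 1 was called lower (-0.35, adjusted p = 0.0414 over all probes), and Gsr was called lower with scaling to the array median, with limma's trend and robust settings and with the mean of all its probes. Ggt1, the cell-surface enzyme that starts the breakdown of extracellular glutathione, had 52.6, 47.7 and 44.2 in CFD diet livers, against 2.94, 7.07 and 8.61 in control livers. The probe was well above background on all CFD diet arrays and on no control array, so its fold is known as a bound alone, at least 2.04-fold (adjusted p = 0.00129). The bound sets the CFD diet mean against, on each control array, the higher of the probe's own signal and the lowest signal well above background. With normexp Ggt1 was also called higher (adjusted p = 0.00556). The bound holds for the reported processing alone, since over the alternatives the fitted log2 difference of Ggt1 went down to 0.38.

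The thioredoxin system was lower or not called. Txn1, the cytosolic thioredoxin, had 25388, 30675 and 25249.8 in CFD diet livers, against 38672, 35904 and 37454 in control livers. It was lower, at -0.47 ± 0.13 (adjusted p = 0.0214) with no overlap. The Txn1 call was lost in the fit that blocks on the slide (adjusted p = 0.0545), with quantile normalization, with normexp and without control replicate 1, control replicate 3, CFD diet replicate 1 or CFD diet replicate 3 (adjusted p from 0.0614 to 0.077). Txnrd1, the cytosolic reductase and a known NRF2 target, had 22831, 22240.3 and 23484 in CFD diet livers, against 23113, 26573 and 25367 in control livers. The groups overlapped, and the difference was -0.13 ± 0.11 (adjusted p = 0.376).

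In the mitochondria the picture was uneven. The mitochondrial reductase Txnrd2 had 1959.6, 4363 and 2071 in CFD diet livers, against 7096, 7815 and 8868 in control livers. It was lower, at -1.60 ± 0.31 (adjusted p = 0.00635), with no overlap and with all 3 probes lower, between -1.60 and -0.67. Its substrate Txn2, the mitochondrial thioredoxin, had 33309.9, 42031 and 35078 in CFD diet livers, against 37141, 37922 and 40112 in control livers. That difference, -0.07 ± 0.13 (adjusted p = 0.692), changed sign with quantile normalization (0.39) and normexp (0.33), which called it higher, and so did its second probe (0.39). Txnrd3, a reductase best known from testis, was lower, at -0.86 ± 0.16 (adjusted p = 0.00509). Txnip, which binds and inhibits thioredoxin, had 10118, 10736 and 11165 in CFD diet livers, against 6291, 21889 and 11561 in control livers. The 3 control arrays differed widely, and the difference of -0.13 ± 0.41 was not called (adjusted p = 0.811).

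Peroxiredoxins reduce peroxides with electrons from thioredoxin, and sulfiredoxin repairs them when they are over-oxidised. Srxn1, the sulfiredoxin, had 39548, 29598 and 37802 in CFD diet livers, against 15654, 13412 and 14188 in control livers. It was higher by 1.30 ± 0.15 (adjusted p = 0.00102), without overlap, and its 3 probes were all higher, from 1.30 to 2.09. Prdx3, the mitochondrial peroxiredoxin, was the only peroxiredoxin of 8 called higher, by 0.77 ± 0.12 (adjusted p = 0.00299), with 29887, 31960.1 and 32665 in CFD diet livers, against 19195, 16739 and 19642 in control livers. Prdx6, a peroxiredoxin that uses glutathione and also acts on phospholipids, was lower, at -0.97 ± 0.16 (adjusted p = 0.00318) with all 4 probes. The retrotransposed copies Prdx6b and Prdx6-ps2 were lower, at -1.06 ± 0.21 and -1.11 ± 0.21, and Prdx6-ps2 had 3943, 3857 and 2624 in CFD diet livers, against 8814, 6581 and 6925 in control livers. Probes for these copies may bind Prdx6 transcripts, so the 3 are not independent.

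Prdx1, Prdx2, Prdx4 and Prdx5 were not called, with differences from -0.40 to -0.33. For each of these genes CFD diet replicate 2 was the highest of the CFD diet arrays, and without that array all 4 were called lower. Prdx1 was also called lower with scaling to the array median. Over the alternatives the differences of Prdx1, Prdx2 and Prdx4 reached 0.13, 0.14 and 0.15, so their sign changed, and that of Prdx5 reached -0.01. The second Prdx4 probe stood at 0.63 and was not called. The glutaredoxins use glutathione to reduce mixed disulfides, and the mitochondrial Glrx5 and the cytosolic Glrx3 serve in iron-sulfur and iron handling. Glrx and the mitochondrial Glrx2 were lower, at -0.72 ± 0.17 and -0.64 ± 0.15 (adjusted p = 0.013 and 0.0115), the first not without control replicate 3 (adjusted p = 0.0544). Glrx3 and Glrx5 were not called, at 0.03 ± 0.13 and -0.29 ± 0.16, although Glrx3 was higher with quantile normalization and normexp and Glrx5 was lower without CFD diet replicate 2.

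Superoxide dismutases turn superoxide into hydrogen peroxide. Sod2, the mitochondrial manganese enzyme, had 76740.3, 116606 and 84229.8 in CFD diet livers, against 151039, 180801 and 172381 in control livers. It was lower, at -0.88 ± 0.18 (adjusted p = 0.00811) with no overlap. Sod1, the cytosolic copper-zinc enzyme, had 234055, 431613 and 254529 in CFD diet livers, against 479496, 522864 and 564465 in control livers. All 3 of its probes were lower, at -0.82 ± 0.24 for the brightest (adjusted p = 0.0284), but this call held in only 1 of the 6 fits that leave out 1 array. The exception was the fit without CFD diet replicate 2, and the adjusted p in the other five was from 0.0544 to 0.0952. It was also lost with quantile normalization and normexp. Sod3, the secreted enzyme, had 95.4, 53.3 and 85.3 in CFD diet livers, against 67.1, 82.5 and 69.7 in control livers, with overlapping groups and a difference of 0.06 ± 0.23 (adjusted p = 0.857).

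Hmox1, which breaks heme down to biliverdin, iron and carbon monoxide and is strongly expressed in macrophages that clear red cells, had 19026, 21789 and 28772 in CFD diet livers, against 5808, 6422 and 6318 in control livers. The lowest CFD diet array was far above the highest control, and the difference was 1.89 ± 0.17 (adjusted p = 0.000419). The carbonyl reductase Cbr3, an enzyme that reduces quinones and ketones with NADPH, had 7127, 6008 and 7590.1 in CFD diet livers, against 1310.0, 1123 and 1526 in control livers. It was higher by 2.39 ± 0.16 (adjusted p = 0.000143), and the within-slide differences of 2.44, 2.42 and 2.31 lay close together. Its neighbour Cbr1, on the same chromosome 16, had 7820.2, 5345 and 4145 in CFD diet livers, against 7504, 3624 and 5274 in control livers. There the groups overlapped, and the difference was 0.09 ± 0.33 (adjusted p = 0.833).

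Among the 14 tested thioredoxin-domain proteins outside these families, 1 was higher (7.1%), 3 were lower (21.4%) and 10 were not called. Both shares were below those of all tested genes, 23.7% and 27.4%. Tmx4, a membrane thioredoxin protein of the endoplasmic reticulum, had 1244, 1934 and 1384 in CFD diet livers, against 3656, 3471 and 3594 in control livers. It was lower, at -1.26 ± 0.18 (adjusted p = 0.00215) without overlap and with all 3 tested probes. The other two that were lower, Erp44, a retention factor of the secretory pathway, and Tmx2, had smaller differences of -0.51 ± 0.14 and -0.50 ± 0.14 (adjusted p = 0.0191 and 0.0263). The Erp44 call was lost without control replicate 1, control replicate 3, CFD diet replicate 1 or CFD diet replicate 3 (adjusted p from 0.0567 to 0.0767). It was also lost with the slide as a block, quantile normalization, no filter on dim probes and the mean of all its probes. Of its 3 probes 1 was not called, at -0.007. Among fits that leave out 1 array, the Tmx2 call held only without CFD diet replicate 2 (adjusted p from 0.051 to 0.103 in the others). Quantile normalization and the lack of a filter also lost the Tmx2 call. Txndc12, a thiol oxidoreductase of the endoplasmic reticulum, was higher by 0.59 ± 0.12 (adjusted p = 0.00761), except with scaling to the array median (adjusted p = 0.0786). The 10 not called lay between -0.24 and 0.23, and for Txndc5, Txndc9, Txndc11 and Txnl4a 1 other probe of each was called lower.

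The arrays of the CFD diet group did not move equally. Of the 31 members called lower, CFD diet replicate 2 was the CFD diet array nearest to the controls for 28 (90.3%), as it was for 78.0% of all 4354 genes called lower. The median of these 31 members stood at -1.13, -0.52 and -1.12 from the control mean on CFD diet replicates 1 to 3. Of the 15 members called higher, replicate 1 was nearest for 8, replicate 2 for 4 and replicate 3 for 3, with medians of 1.46, 1.39 and 1.39. Without CFD diet replicate 2, 15 members were higher and 36 lower. Without control replicate 3 or CFD diet replicate 3, 18 and 19 were lower, against 31 with all arrays.

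Same-numbered arrays of both groups shared a slide and a scan per the file headers, so each slide holds 1 array of either group. All 46 called members had 1 sign of difference within all 3 slides, as had 59 of the 75 tested members (18 higher, 41 lower), or 78.7%, against 73.7% of all tested genes. A gene whose groups do not overlap has 1 sign on every slide in any case. For the called members, nearly all of them without overlap, the shared sign is therefore no separate result. Groups did not overlap in 53 of the 75, with CFD diet above in 17 and below in 36, while among all tested genes 28.4% were above and 34.6% below, or 63.0% either way. With the slide as a replicate block, 15 members were higher and 29 lower, and Erp44 and Txn1 were the members that lost their call.

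**Figure D5:**
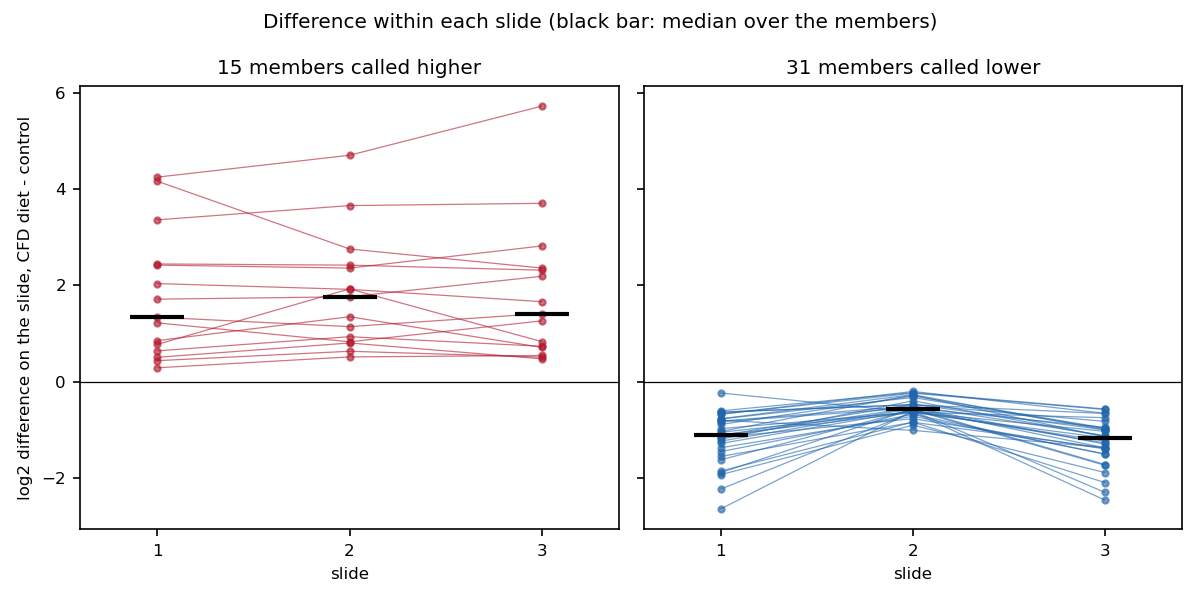
Difference of CFD diet minus control (log2) within each of the 3 slides for the 15 members called higher and the 31 called lower, with a line for each gene and a black bar at the median. All lines stay on 1 side of 0, as they must for a gene whose groups do not overlap, and the falls are smallest on slide 2.

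Markers of liver cell types also differed between the groups, and their part in the differences of the members was not tested. Whole liver RNA was measured, so fewer cells of a type and less RNA per cell cannot be told apart. While 27.4% of all tested genes were called lower, 4 of the 7 tested hepatocyte markers were (57.1%), and 0 were higher. Their mean log2 level, relative to the 75th percentile of each array, was 6.59, 7.19 and 6.61 on CFD diet replicates 1 to 3 and 7.41, 7.53 and 7.57 on control replicates 1 to 3. CFD diet replicate 2 was thus also the CFD diet array nearest to the controls in these markers. It was so for 28 of the 31 members called lower, and for 78.0% of all genes called lower. The summed scaled signal of the hepatocyte markers was 1143225 to 1929599 in CFD diet livers and 1922433 to 2372323 in control livers, so the ranges overlapped at the edge.

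All 8 cholangiocyte markers (among them Krt19 and Epcam) were higher, with summed signals of 90280.0 to 125439 in CFD diet livers and 5884 to 9058 in control livers. A sum follows its brightest probe, here Spp1, with 84355 to 116665 in CFD diet livers and 5200.5 to 7984 in control livers. All 8 stellate cell and myofibroblast markers were higher (181856 to 214153 in CFD diet livers, 70604 to 80981 in control livers), where Dcn made up most of the sum, with 142577 to 163994 in CFD diet livers and 59277 to 67757 in control livers. Also higher were 7 of 8 macrophage markers (379468 to 499193, against 150514 to 197371, most of the CFD diet sums being Lyz2), while the resident macrophage marker Clec4f was lower. As a mean of log2 levels, in which every marker counts equally, the cholangiocyte list stood at 0.08 in CFD diet livers and -3.48 in control livers, the stellate list at 2.45 and 0.74, and the macrophage list at 4.59 and 2.02. All 3 tested neutrophil markers of 8 and all 6 cycling cell markers were higher, with summed signals of 18623 to 24713 and 4246 to 7739 in CFD diet livers, against 1345 to 2314 and 1148 to 1436 in control livers. Endothelial markers were mixed, with 1 of 8 higher and 4 lower (23950.0 to 31290.0, against 37509 to 41123). Of the 7 tested T, B and NK cell markers 0 were higher and 2 lower (631 to 939, against 896 to 1188), and of the 3 tested erythroid markers of 6, 2 were lower (79128 to 144238, against 145811 to 208253). With 2 groups, any gene called higher or lower goes along with the markers of its direction. These lists therefore do not show which cells carry the differences of the members.

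Of 28 tested other genes known to respond to NRF2, 9 were higher (32.1%) and 7 lower (25.0%), with a median of -0.05. The shares over all tested genes were 23.7% and 27.4%, with a median of -0.11. Akr1b7, an aldose reductase relative, had 5137, 3402 and 2277 in CFD diet livers, against 167, 89.4 and 134 in control livers, and was higher by 4.76 ± 0.35 (adjusted p = 0.000182) without overlap. Slc7a11, the cystine importer that feeds glutathione synthesis, had 167, 60.2 and 151 in CFD diet livers, against 2.93, 7.08 and 8.88 in control livers, and was well above background on no control array, so it was at least 4.88-fold higher (adjusted p = 0.00121). Abcc4, an exporter of conjugates, had 6071, 3389 and 6183 in CFD diet livers, against 757, 404 and 647 in control livers, a difference of 3.11 ± 0.32 (adjusted p = 0.000614). The other 6 higher genes were Nqo1, G6pdx, Pgd, Abcc1, Akr1b8 and Ptgr1, at 1.19 to 1.90.

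The largest falls among them were those of Aox1, Cat and Idh1. Aox1, an aldehyde oxidase of hepatocytes, had 3887, 12736 and 4314 in CFD diet livers, against 33537, 27459 and 35574 in control livers, and was lower, at -2.42 ± 0.44 (adjusted p = 0.00498). Cat, the peroxisomal catalase, had 28406, 50636 and 25178 in CFD diet livers, against 107902, 118841 and 117033 in control livers, and was lower, at -1.79 ± 0.26 (adjusted p = 0.00232). Idh1, a cytosolic source of NADPH, had 2106, 2692 and 1610.0 in CFD diet livers, against 5394, 5317 and 5542 in control livers, and was lower, at -1.37 ± 0.20 (adjusted p = 0.00206). In each of the 3 the groups did not overlap. The remaining 4 lower genes, Abcc3, Ephx1, Ugdh and Esd, were at -1.15 to -0.48, and the ferritin genes Ftl1 and Fth1 were not called (0.03 ± 0.14 and -0.10 ± 0.19).

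In the supply and breakdown of glutathione, 7 of 20 genes were higher (35.0%) and 8 lower (40.0%), against 23.7% and 27.4% of all tested genes. The transsulfuration enzyme Cbs, which commits homocysteine to cysteine, had 10690.5, 16735 and 10591 in CFD diet livers, against 29402, 28207 and 33044 in control livers, and was lower, at -1.28 ± 0.20 (adjusted p = 0.00307). Gnmt, which uses up S-adenosylmethionine, had 97484, 236847 and 116224 in CFD diet livers, against 354434, 365979 and 398269 in control livers, and was lower, at -1.42 ± 0.32 (adjusted p = 0.0107). The liver glutaminase Gls2 had 34218, 52900.3 and 28598 in CFD diet livers, against 92971, 95634 and 97162 in control livers, and was lower, at -1.35 ± 0.23 (adjusted p = 0.00375). In each of these 3 genes the CFD diet arrays lay below all control arrays. Cth, which releases cysteine at the end of transsulfuration, was lower, at -0.91 ± 0.25 (adjusted p = 0.021).

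The largest rises on this list were those of a surface dipeptidase, a glutamine carrier and a relative of Ggt1. Dpep1, which splits cysteinyl-glycine after Ggt1 has acted, had 304, 437 and 398 in CFD diet livers, against 68.4, 47.1 and 48.6 in control livers, and was higher by 2.80 ± 0.21 (adjusted p = 0.000195). Slc1a5, the glutamine carrier, had 1317, 1205 and 1879 in CFD diet livers, against 269.7, 248 and 227 in control livers, and was higher by 2.54 ± 0.19 (adjusted p = 0.000206). Ggt7 had 57, 73.9 and 99.2 in CFD diet livers, against 26.5, 26.5 and 20.8 in control livers, and was higher by 1.61 ± 0.23 (adjusted p = 0.00192), although it was well above background on only 1 control array. In all of these genes the groups did not overlap.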

How the data were processed

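RNA of 3 CFD diet and 3 control livers was hybridised to 1-colour Agilent arrays. The deposited scanner files hold the intensity of each spot, background-subtracted by Feature Extraction 10.5.1.1 per the file headers (10.7 per the submitters' processing notes). Probe coordinates are in mm7 per the file headers. The deposited value table also holds intensity values on a linear scale. By rank, every column matched (correlation 1) the scanner file of a different replicate from its own group, so the table served as an alternative. Its column medians were 72.7, 73.9 and 80.6 for CFD diet 1 to 3 and 68.0, 61.5 and 67.6 for control 1 to 3. It is not known which set of replicate numbers is right. Group comparisons do not depend on this, but the replicate and slide numbers in the text are those of the scanner files.

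Repeated spots of a probe were averaged after outlier spots had been dropped. The log2 of the processed signal minus each array's 75th percentile was fitted with limma 3.58.1 in R 4.3.3, without a block. A probe was tested if well above background on all 3 arrays of a group. The tested probe with the highest mean over the 6 arrays stood for its gene, and p-values were adjusted by Benjamini-Hochberg over all 15911 genes. The fit was run on simulated independent values in which far fewer genes moved than were called here, so that run does not test these calls. Names were updated through RefSeq (GRCm38.p6), which matched 110 of the 131 member probes by accession, 14 by current symbol and 7 by older symbol. Genes described by array were the 10 largest rises and 10 largest falls, those with a bound and fixed core genes. Of the other lists, the 3 largest changes each way were so described, and genes outside these rules were picked after their values were seen. Members and lists were chosen with earlier results of these data known. The 15 alternatives changed scaling, filter, probe summary, limma settings, block, value source or left out an array.

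Same-numbered arrays shared a slide. Their deviations from the group means correlated by 0.17, -0.07 and -0.01 for replicates 1 to 3, so not every pair deviated together, and the slide was left out of the reported fit and used as a block in an alternative. With 3 arrays a group the number of arrays limits the precision.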

Additional observations from a re-analysis of the deposited data

How the results depend on the processing

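Calls among the members were more stable upward than downward. Over the 15 alternatives, 11 of the 15 members called higher kept that call wherever they were tested. So did 15 of the 31 called lower and 14 of the 29 not called, and 0 were called in the opposite direction. Ggt1 and Gpx2, called higher, and Txndc2, not called, were tested in only 14 alternatives, since the stricter filter left them out. Without a filter on dim probes, which adjusts over 27670 genes, 16 members were lower, and over all genes 2459 were lower, against 31 and 4354. Leaving out 1 array at a time gave 13 to 15 members higher and 18 to 36 lower, and over all genes 3099 to 4190 higher and 2755 to 4844 lower. The fewest lower calls came without control replicate 3 (18 members, 2755 genes) and without CFD diet replicate 3 (19 members, 2839 genes). These fits have fewer arrays. Of the members, 2 of 15 higher and 13 of 31 lower calls were lost in at least 1 of them. With the slide as a replicate block 3526 genes were higher and 3794 lower, and for the members 15 and 29. Txn2, not called as reported, was higher with quantile normalization (0.39, adjusted p = 0.0146) and normexp (0.33, adjusted p = 0.00882), and the cause was not tested. With normexp, which adds an offset of 50, the dim gene Gpx2 kept its call with a difference of 0.97, against 2.53. Of 28 members with more than 1 tested probe, 19 had 1 call for all probes, 9 had some probes called and some not, and 0 had probes called in both directions. For genes not well above background in the control livers only a bound can be given.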

Other observations

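Relatives of these families that the array's design lists under clone names fell outside the naming rule, and were found through the updated symbols. Gpx8, an endoplasmic reticulum peroxidase like Gpx7, had scaled signals of 985, 1336 and 1209.6 in CFD diet livers, against 384, 243 and 297 in control livers, without overlap, and was higher by 1.95 ± 0.21 (adjusted p = 0.00067). With it, 5 of the 7 glutathione peroxidases that were tested on the array were higher, against 23.7% of all tested genes. Gstp3, a pi-class transferase, had 729, 919 and 925 in CFD diet livers, against 557, 511 and 616 in control livers, and was higher by 0.61 ± 0.15 (adjusted p = 0.0142), while its relative Gstp1 was lower. Txndc15 had 14302, 25314 and 13503 in CFD diet livers, against 48139, 45844 and 47972 in control livers, and was lower, at -1.48 ± 0.25 (adjusted p = 0.0036). Txndc16 had 586, 531 and 629.6 in CFD diet livers, against 299, 339 and 295 in control livers, and was higher by 0.90 ± 0.13 (adjusted p = 0.00195). In all 4 the groups did not overlap. Gstt4 did not rise above background on any array.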
